A study of Mus musculus with 8 samples.

Results

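Proestrus is the stage of the mouse estrous cycle that comes just before estrus, and the genes described here are those that set the proestrus uterus apart from every other stage measured. A gene was taken as a peak when both proestrus libraries lay above all 6 libraries of estrus, metestrus and diestrus, and as a trough when both lay below all 6. The order was read in CPM, read counts scaled to the size of each library, here with the TMM factors of edgeR. Of the 52308 genes counted, 4781 met this rule, 2382 as peaks and 2399 as troughs. The filter on low counts left 18114 genes for testing, among them 2030 peaks (11.2%) and 2143 troughs (11.8%). The other 352 peaks and 256 troughs were too low to test and are given here by their number only. A gene nearly silent elsewhere passed the filter only through the stage in which it was high.

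All 8 libraries came from the whole uterus of female ICR mice, an outbred stock, aged 6-8 weeks. The labels name no allele, treatment or drug, and the groups are told apart by stage: proestrus, estrus, metestrus and diestrus, with 2 libraries each. Stage was read from the stained cells of a vaginal smear, which dates an animal by its vaginal epithelium and not by its hormone levels. The labels do not say whether the libraries of a stage came from separate animals, so p-values measure the spread between these libraries, which may be technical.

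As background, estradiol from growing ovarian follicles rises through diestrus and reaches its top in proestrus. In the uterus it acts through the estrogen receptor Esr1, and is known to cause fluid uptake, growth of the epithelium and synthesis of secreted proteins. Progesterone acts after ovulation through the receptor Pgr, in part through Indian hedgehog signals from epithelium to stroma.

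Library totals ran from 17863546 to 21896786 counts. The first 3 principal components held 48.34%, 23.25% and 11.43% of the variance, and the proestrus libraries stood at -66.44 and -72.25 on the second, against -15.52 to 60.7 for the others. On the first, proestrus libraries 1 and 2 stood at -54.86 and -12.73, between estrus (-97.87 and -88.75) and metestrus and diestrus (50.89 to 69.58). Diestrus libraries 1 and 2 lay apart on the third, at 71.46 and -28.11. Summed CPM of gland markers was 10458 and 394 in these 2 diestrus libraries. Esr1 itself was neither peak nor trough, with 443 and 457 CPM in proestrus and 301 to 464 CPM elsewhere (log2 difference 0.22 ± 0.13, adjusted p = 0.287). In RNA from whole tissue, fewer cells of a type and less RNA per cell cannot be told apart. Summed CPM of 20 markers of simple epithelium was 9099 and 7628 in proestrus libraries 1 and 2 and 1851 to 7301 elsewhere. The 16 stromal markers summed to 2194 and 2345 CPM in proestrus and 2023 to 3160 CPM elsewhere, so the groups overlapped. Markers of the stratified epithelium of the lower tract were low throughout, 32.2 and 32.1 CPM in proestrus and 18.2 to 28.1 CPM elsewhere. The part of these cell type sums in the results below was not tested except where values are given.

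Proestrus was compared with the mean of the 3 other stages in 1 fit over all 8 libraries, by edgeR's quasi-likelihood test with Benjamini-Hochberg adjustment over the 18114 genes. All log2 differences below are proestrus minus that mean, ± the standard error, unless another stage is named. By this contrast 2010 genes (11.1%) were higher in proestrus and 1372 (7.57%) lower. Without TMM factors the split turned to 1376 higher and 2111 lower, and the median log2 difference of all tested genes moved from 0.002 to -0.14. Without proestrus library 1 the contrast called 360 higher and 113 lower, without proestrus library 2 975 and 314, without an estrus or metestrus library 1067 to 1263 and 527 to 676, and without diestrus library 1 or 2 2742 and 2125 or 2766 and 2159. Of the peaks, 1261 were also called higher, and of the troughs 1066 were also called lower. The contrast uses the same libraries as the rule, so these counts describe the members and give them no independent support. A further 749 genes were called higher without being peaks.

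At the edge of the rule the separation was small. The peak Sbf2 had 98.65 and 98.91 CPM in proestrus against a highest other library of 98.6 CPM, and the peak Lsm4 had 45.84 and 56.18 CPM against 45.81 CPM. Just outside lay Dcaf12, whose lower proestrus library had 114.1 CPM against 114.2 CPM in estrus library 1, and Dnajc5, with 139.9 against 140.0 CPM. Among troughs, Zfp775 and Kctd12 were just inside, where the nearer proestrus library and the lowest other library were both at 3.79 CPM for Zfp775 and at 378.8 CPM for Kctd12. Prss28 and Spink1, listed at 0 in proestrus and in some other libraries too, missed the trough rule by a tie. At the other end, 95 peaks and 55 troughs had a gap of 2-fold or more, measured from the nearer proestrus library to the nearest other library with 0.5 CPM added to both.

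A smaller set of members also passed a fit that takes the 6 other libraries as 1 group, so that differences among estrus, metestrus and diestrus count as spread. That fit called 31 genes higher (0.171% of those tested) and 15 lower (0.0828%). All 31 were peaks and all 15 troughs. This fit splits the same libraries in the same way as the rule, so it gives the members no independent support. Of the 31, 3 (Bcat1, Jdp2 and Gm12248) passed the test among estrus, metestrus and diestrus, and of the 15 none did. The plot of the genes past this fit shows each library relative to the mean of the other 6.

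**Figure D1:**
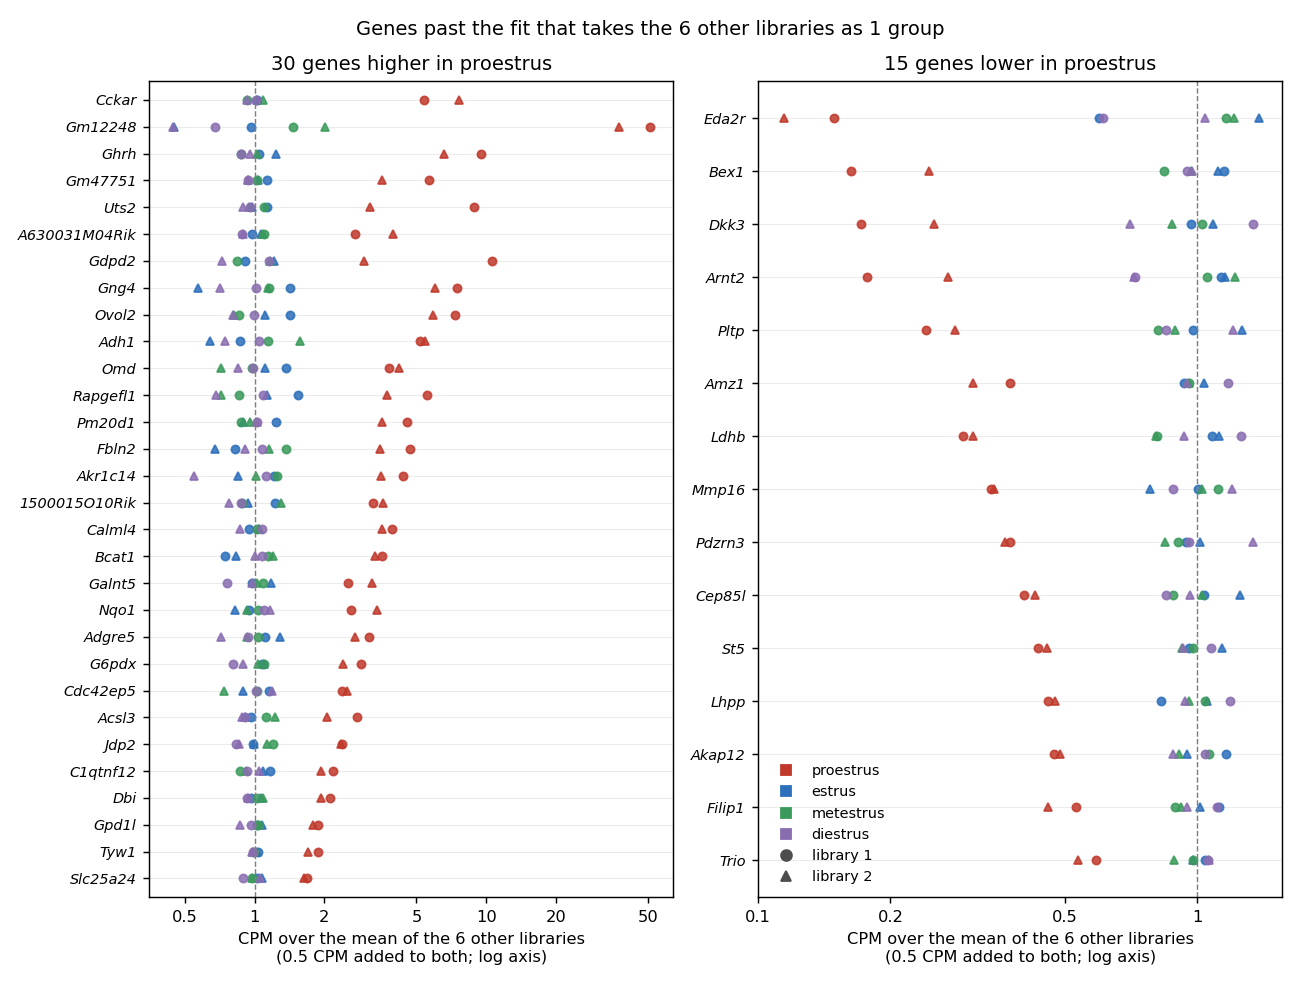
Each row is 1 gene, 30 of the 31 higher (left) or all 15 lower (right) in proestrus by the fit with the 6 other libraries as 1 group; the x axis is CPM over the mean of the 6 other libraries, with 0.5 CPM added to both, on a log axis, and each point is 1 library. The 2 proestrus points (red) lie apart from the 6 others, which sit around 1.

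Several of the 31 act in metabolism. Bcat1, which moves nitrogen from branched-chain amino acids, had 1094 and 1015 CPM in proestrus and 228 to 370 CPM (median 320) elsewhere, a log2 difference of 1.80 ± 0.09 (adjusted p = 0.000605). G6pdx, the enzyme that opens the pentose phosphate pathway and supplies NADPH, had 340 and 284 CPM against 94.2 to 130 CPM (1.42 ± 0.09, adjusted p = 0.00103). Nqo1, a quinone reductase that uses such cofactors, had 15.2 and 19.8 CPM against 4.44 to 6.51 CPM. In all 3 the gap between the groups was over 2-fold.

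Other metabolic genes in the set differed by 0.88 to 1.29 log2 units. Dbi, the acyl-CoA binding protein, had 129 and 117 CPM in proestrus and 55.9 to 65.7 CPM elsewhere. Acsl3, which activates long-chain fatty acids, had 102 and 75.4 CPM against 32.1 to 45.0 CPM. Gpd1l, a relative of glycerol 3-phosphate dehydrogenase, had 164 and 156 CPM against 75.2 to 93.8 CPM. Adh1, an alcohol dehydrogenase that can oxidize retinol, was larger in its difference, with 616 and 646 CPM against 75.9 to 187 CPM (2.46 ± 0.18, adjusted p = 0.00123).

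Some of the 31 are regulators. Calml4, a calmodulin-like protein, varied little outside proestrus, with 42.0 and 38.0 CPM against 8.88 to 11.2 CPM (median 10.7; 1.95 ± 0.12, adjusted p = 0.000863). Ovol2, a zinc finger factor that keeps cells epithelial, had 29.8 and 24.0 CPM against 2.82 to 5.40 CPM (2.92 ± 0.17, adjusted p = 0.000714). Gng4, a G protein gamma subunit, had 28.4 and 22.6 CPM against 1.70 to 4.95 CPM. The gap to the nearest other library was 3.3-fold for Calml4, 4.15-fold for Ovol2 and 4.23-fold for Gng4.

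Genes of hormone signalling that are best known from other organs also stood in the set, at low levels. Cckar, the receptor for cholecystokinin, had 2.41 and 3.62 CPM in proestrus and at most 0.0856 CPM elsewhere. Ghrh, the growth hormone-releasing hormone, had 4.97 and 3.28 CPM against at most 0.206 CPM. Uts2, the vasoactive peptide urotensin 2, had 4.97 and 1.44 CPM against at most 0.2 CPM. The 2 proestrus libraries together held 120 counts of Cckar, 163 of Ghrh and 126 of Uts2, while elsewhere a few reads decide their level. These genes passed the filter on low counts only through proestrus.

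Gm12248 had the widest gap of all 46 genes. This protein-coding gene model lies on the minus strand of chromosome 11 (GRCm38, 58063552 to 58093134) and has no assigned name; it is named here after its values were seen. It had 91.4 and 67.5 CPM in proestrus against 0.303 to 3.12 CPM elsewhere, an 18.8-fold gap to the nearest library. Fbln2 and Omd, both of the extracellular matrix, were in the set too: Fbln2 with 649 and 482 CPM against 92.4 to 188 CPM, and Omd with 5.79 and 6.45 CPM against 0.684 to 1.75 CPM.

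The 15 genes on the low side were all lower by 0.84 to 3.09 log2 units. Pltp, which transfers phospholipids between lipoproteins, had 35.1 and 40.9 CPM in proestrus and 120 to 186 CPM elsewhere (-1.94 ± 0.19, adjusted p = 0.00238). Ldhb, the lactate dehydrogenase subunit of oxidative tissue, had 54.2 and 57.3 CPM against 151 to 236 CPM (-1.73 ± 0.14, adjusted p = 0.00136). Arnt2, a partner of bHLH-PAS transcription factors, had 10.6 and 16.5 CPM against 44.5 to 75.8 CPM. Each was below all 6 other libraries by more than 2-fold.

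Dkk3, a secreted glycoprotein related to the Wnt antagonists of the Dickkopf family, had 29.3 and 43.0 CPM in proestrus and 122 to 232 CPM elsewhere (-2.26 ± 0.30, adjusted p = 0.00533). Eda2r, a receptor for ectodysplasin A2, had 3.69 and 2.73 CPM against 16.3 to 38.4 CPM. Bex1, a small adaptor-like protein, had 0.461 and 0.943 CPM against 4.46 to 6.30 CPM. Mmp16, a membrane-bound matrix protease, had 4.77 and 4.86 CPM against 11.6 to 18.2 CPM. Of these 4, the contrast of Dkk3 (adjusted p = 0.0626), Eda2r (0.0636) and Mmp16 (0.0555) missed the threshold without proestrus library 1, and that of Eda2r (0.0537) also without proestrus library 2. Across the 46 genes, leaving out proestrus library 1 ended 4 of the 31 higher and 5 of the 15 lower calls of the contrast, and no omission of an estrus, metestrus or diestrus library ended one.

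Cholesterol synthesis was the pathway with the largest share of peaks among the 38 gene lists described. Cells make cholesterol from acetyl-CoA through the mevalonate pathway, and the factor SREBF2 switches on its enzymes when sterols are scarce. Of 27 tested members, 22 were peaks and none a trough; 21 were higher by the contrast and none lower. The median log2 difference of the list was 1.41, against 0.002 for all tested genes. The list was chosen with earlier results of these data known, so its count is a description. The counts of this list and those below stand against all tested genes. Of these, 11.2% were peaks, 11.8% troughs, 11.1% called higher and 7.57% called lower.

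The promoters of these genes are shown because the members moved together and the pathway is known to be read through short promoter elements. Promoter sequences, 250 bases before to 50 after the start site, were taken from RefSeq (GRCm38.p6), which had an entry for 15 of the 22 peaks. In the Hmgcs1 promoter (chr13:119690101-119690400, plus strand, 5′ to 3′) the capitals mark 1 match to the sterol regulatory element TCACNCCAC and 4 matches to the CCAAT box, CCAAT or its reverse complement ATTGG.
Hmgcs1: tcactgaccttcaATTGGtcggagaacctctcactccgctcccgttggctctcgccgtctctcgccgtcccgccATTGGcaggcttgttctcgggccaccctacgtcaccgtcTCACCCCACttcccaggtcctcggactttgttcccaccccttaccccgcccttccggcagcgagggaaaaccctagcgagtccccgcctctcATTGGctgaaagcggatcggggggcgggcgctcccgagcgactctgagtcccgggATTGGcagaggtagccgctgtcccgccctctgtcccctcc

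Of the peaks with a promoter entry, 6 held the longer motif CTGATTGG, which contains ATTGG and so overlaps the CCAAT box. The windows below are 5′ to 3′ on the strand of the gene, with the motif in capitals: Mvk (chr5:114444240-114444271, plus), Idi1 (chr13:8885546-8885577, plus), Lss (chr10:76531528-76531559, plus), Tm7sf2 (chr19:6067881-6067912, minus), Ebp (chrX:8193551-8193582, minus) and Sc5d (chr9:42264308-42264339, minus).
Mvk: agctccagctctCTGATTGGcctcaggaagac
Idi1: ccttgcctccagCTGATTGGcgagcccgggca
Lss: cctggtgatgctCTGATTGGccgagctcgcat
Tm7sf2: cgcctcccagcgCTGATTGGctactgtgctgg
Ebp: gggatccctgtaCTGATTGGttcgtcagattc
Sc5d: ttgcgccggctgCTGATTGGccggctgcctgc

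Searched on both strands, CCAAT was in 14 of the 15 promoters (93.3%), against 42.2% of the 12375 tested genes with an entry. CTGATTGG was in 6 of 15 (40%), against 6.21%. The sterol regulatory element was in 1 of 15 (6.67%), that of Hmgcs1, against 1.45%. Over all 1417 proestrus peaks with a promoter the 3 shares were 44%, 6.14% and 1.41%, near those of the tested genes. The whole cholesterol list, peaks or not, had CCAAT in 17 of 19 promoters (89.5%) and CTGATTGG in 6 of 19 (31.6%). An estrogen response element of the form GGTCANNNTGACC was in none of the 1417 peaks with a promoter, and in 1 of the 12375 tested genes (0.00808%). A match is a description of these letters in this window and not a binding site.

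The regulators came first in the pathway. Srebf2, the master factor, had 274 and 243 CPM in proestrus and 91.3 to 193 CPM elsewhere (1.00 ± 0.12, adjusted p = 0.00404; 0.0507 without proestrus library 1). Insig1, which holds the factor in the endoplasmic reticulum and is itself one of its targets, had 56.3 and 60.7 CPM against 18.4 to 39.0 CPM (1.05 ± 0.22, adjusted p = 0.0216). The call of Insig1 ended without proestrus library 1 (0.121), proestrus library 2 (0.116), estrus library 2 (0.0559) or metestrus library 1 (0.0531). Its partner Scap, with 71.1 and 74.9 CPM against 66.8 to 91.1 CPM, and Insig2, with 42.3 and 35.4 CPM against 26.1 to 58.4 CPM, overlapped the other stages.

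All 8 early enzymes, from acetyl-CoA to farnesyl diphosphate, were peaks called higher. Hmgcs1, which makes HMG-CoA, had 139 and 137 CPM in proestrus and 30.6 to 68.1 CPM (median 43.7) elsewhere (1.59 ± 0.13, adjusted p = 0.00146). Idi1, the isomerase of the next steps, had 45.1 and 39.9 CPM against 2.17 to 19.0 CPM (2.47 ± 0.34, adjusted p = 0.00584; 0.0592 without proestrus library 1). The gap to the highest other library was 2-fold for Hmgcs1 and 2.07-fold for Idi1.

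Of the 12 enzymes from squalene onward, 10 were peaks called higher. Sqle, which epoxidizes squalene, had 103 and 108 CPM in proestrus and 9.91 to 75.0 CPM elsewhere (1.82 ± 0.25, adjusted p = 0.00609; 0.0554 without proestrus library 1). Msmo1, a sterol methyl oxidase, had 96.9 and 83.0 CPM against 10.7 to 33.7 CPM (2.18 ± 0.23, adjusted p = 0.0027). The exceptions were Hsd17b7 (21.5 and 16.2 CPM against 5.94 to 19.4 CPM) and Dhcr7 (33.7 and 35.9 CPM against 11.9 to 39.8 CPM), where a metestrus library passed the lower proestrus library.

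Of 3 tested genes of uptake and transport, 2 were peaks and 1 was called higher. Stard4, a carrier of cholesterol inside cells, was a peak by 1.06-fold with an adjusted p of 0.0863.

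**Figure D2:**
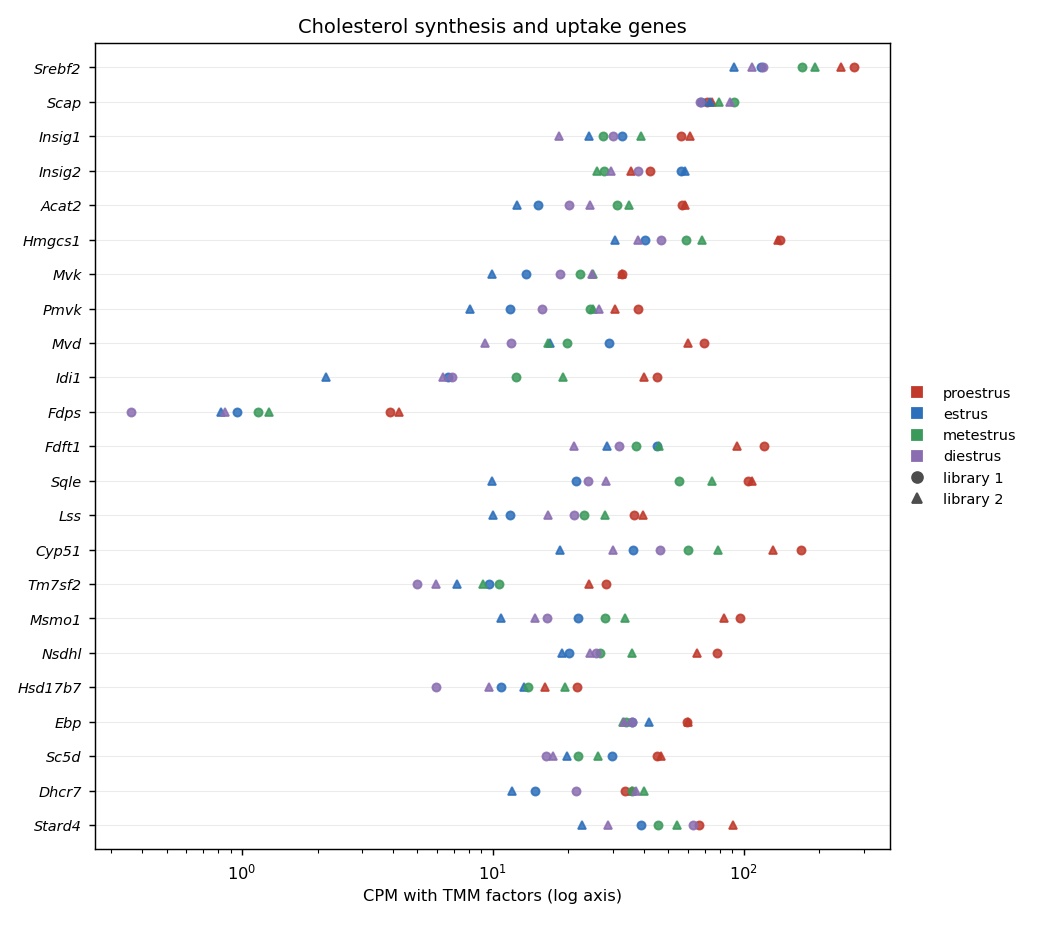
Each row is 1 gene, 23 of the 27 tested cholesterol genes, the x axis is CPM with TMM factors on a log axis, and each point is 1 library coloured by stage. Both proestrus libraries (red) are the highest for 19 of the genes drawn, and metestrus (green) is often next.

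Among the 22 peaks, metestrus had the highest mean of the other stages for 18 and estrus for 4. Tested by pairs, 21 members were higher in proestrus than in estrus (6.94% of all genes were), 12 higher than in metestrus (10.3%) and 20 higher than in diestrus (12%), and none was lower in any pair. The sum over the list was 2675 and 2335 CPM in proestrus and 694 to 1298 CPM elsewhere. Without proestrus library 1 the contrast called 8 members higher and without proestrus library 2 16, and the edgeR fit with the 6 other libraries as 1 group called none, with 21 at an unadjusted p under 0.05. In the fit by stage, DESeq2 called 22 and limma-voom 21.

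Fatty acid synthesis, which SREBF1 governs, was mixed. Of 18 tested members 7 were peaks and 3 troughs, with 6 called higher and 2 lower. Acacb, an acetyl-CoA carboxylase, had 51.0 and 35.1 CPM in proestrus and 10.4 to 21 CPM elsewhere (1.56 ± 0.20, adjusted p = 0.00477; 0.0555 without proestrus library 1). The desaturases Fads1 (-0.49 ± 0.12, adjusted p = 0.036) and Fads2 (-0.52 ± 0.10, adjusted p = 0.0159) were on the low side; both missed the threshold without proestrus library 1 (0.271 and 0.17) and library 2 (0.0542 and 0.0637), Fads1 also without any 1 estrus or metestrus library (0.0685 to 0.0886) and Fads2 without metestrus library 2 (0.055). Without proestrus library 1, 0 members of this list passed in either direction.

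The peaks with the widest gaps came from several families. Sprr1a, a precursor of the cornified envelope of skin, had 142 and 106 CPM in proestrus, 22.3 and 9.76 CPM in estrus and at most 1.54 CPM in metestrus and diestrus (5.71 ± 0.39, adjusted p = 0.00106). Crabp2, a carrier of retinoic acid, had 84.3 and 64.0 CPM against 0.495 to 14.7 CPM (3.68 ± 0.48, adjusted p = 0.00499; 0.054 without proestrus library 1). Lypd2, a Ly6-type surface protein, had 8.00 and 6.80 CPM against 0.0450 to 1.30 CPM. In these 3 genes the nearer proestrus library was over 4-fold above the nearest other library.

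The 5 tested blood cell markers gave 73.7 and 57.4 CPM in proestrus and 53.4 to 126 CPM elsewhere, with no peak among them. Fut4-ps1, a transcribed pseudogene, had 45.5 and 14.6 CPM against 0 to 3.50 CPM; its reads may be shared with Fut4, so its level is uncertain. Mgat4c, with 22.2 and 3.08 CPM, and Ntn5, with 37.9 and 2.88 CPM, show how far the proestrus libraries could differ from each other. The contrast of Ntn5 had an adjusted p of 0.031, and of 0.505 without proestrus library 1; it also missed the threshold without any 1 estrus or metestrus library (0.0654 to 0.0926) and by limma-voom (0.101).

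**Figure D3:**
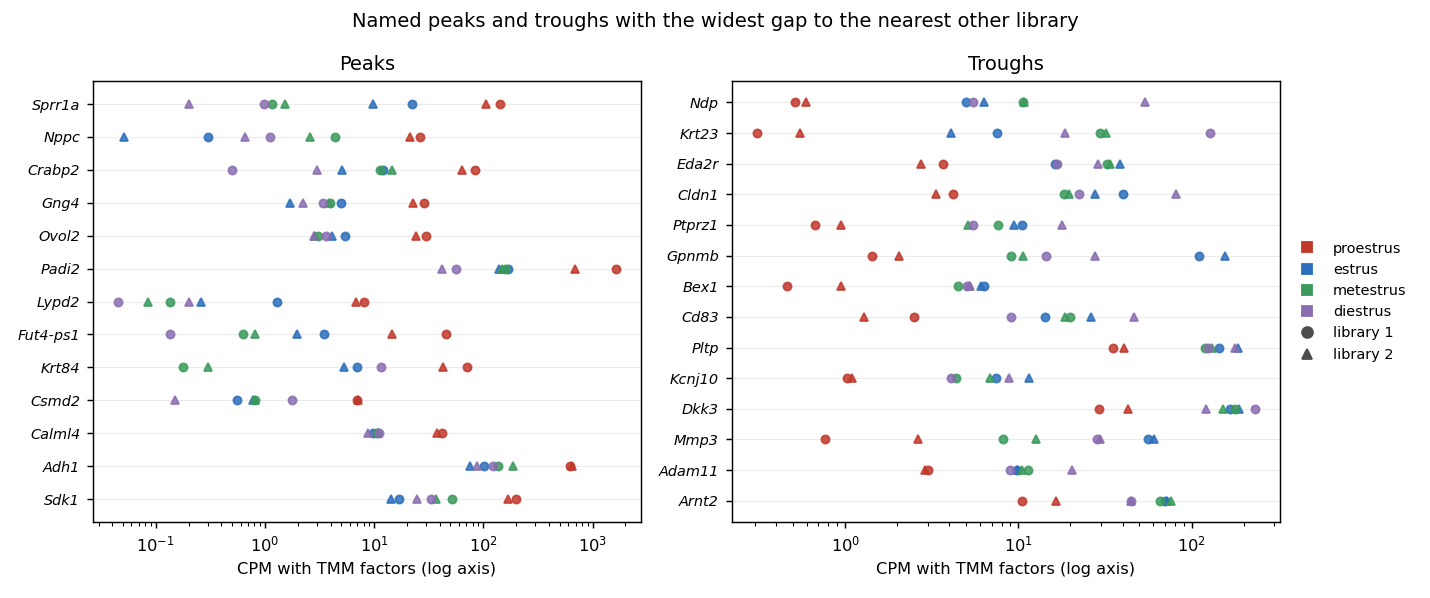
Peaks (left, 13 of the 14) and troughs (right, all 14) with the widest gap, among named genes past the contrast at 5 CPM or above on average in proestrus or in the 6 others; the x axis is CPM with TMM factors on a log axis and each point is 1 library (values of 0 are not drawn). The proestrus points (red) lie beyond all others in each row.

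Markers of simple epithelium were high in proestrus and in estrus. Of 20 tested, 11 were peaks and 15 called higher, none lower, and estrus was the nearest stage for all 11 peaks. Krt7, a keratin of simple and glandular epithelium, had 1004 and 997 CPM in proestrus and 57.7 to 372 CPM elsewhere (2.61 ± 0.27, adjusted p = 0.00266). Elf3, an epithelial transcription factor, had 1018 and 814 CPM, then 622 and 592 CPM in estrus and 34.1 to 139 CPM in the other 4 libraries (2.77 ± 0.15, adjusted p = 0.000605). Epcam, an adhesion protein of epithelial cells, had 663 and 533 CPM, with 484 and 460 CPM in estrus and 117 to 169 CPM after it. By pairs, 17 members were higher in proestrus than in metestrus and 15 than in diestrus, while 2 were higher and 2 lower than in estrus (8.12% of all genes were lower than in estrus). The contrast called 7 of the 20 without proestrus library 1.

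The keratin family had 9 peaks among 25 tested members and 11 called higher. Krt87 and Krt84, keratins of hair and nail, had 83.2 and 55.8 CPM against 0.555 to 18.2 CPM, and 71.4 and 43.1 CPM against 0 to 11.6 CPM. Krt5 and Krt14, the pair of basal stratified cells, were peaks at 1.28 to 3.82 CPM. The exception was Krt23, a trough, with 0.308 and 0.546 CPM in proestrus and 4.08 to 128 CPM elsewhere (-5.76 ± 1.03, adjusted p = 0.0134). Without proestrus library 1 the call ended for Krt84 (adjusted p = 0.145) and Krt23 (0.125), and without proestrus library 2 also (0.0701 and 0.0783). By limma-voom Krt23 had an adjusted p of 0.157. Krt84 missed the threshold too without any 1 estrus or metestrus library (0.0708 to 0.0823), and Krt14 without proestrus library 1 (0.0517) or 2 (0.0593). This family and the next were picked after values were seen.

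All 4 tested peptidylarginine deiminases, enzymes that turn arginine in proteins to citrulline, were peaks called higher. Padi2 had 1643 and 695 CPM in proestrus and 41.8 to 169 CPM elsewhere (3.48 ± 0.28, adjusted p = 0.00136). Padi1 had 2326 and 1365 CPM, then 745 and 494 CPM in estrus, 134 and 131 CPM in metestrus and 56.1 and 12 CPM in diestrus (3.71 ± 0.47, adjusted p = 0.00475; 0.0506 without proestrus library 1). Padi4 had 127 and 112 CPM against 7.11 to 38.4 CPM (2.60 ± 0.18, adjusted p = 0.00109), and Padi3 was low, at 3.18 and 1.79 CPM against at most 0.950 CPM (adjusted p = 0.0203; 0.185 and 0.0546 without proestrus library 1 or 2, and 0.0558 without estrus library 2). The order proestrus, estrus, metestrus, diestrus held in the stage means of the first 3 named.

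Genes known to be induced by estrogen in the uterus divided by stage. Of 26 tested, 7 were peaks and 11 called higher. Ltf, lactoferrin, was no peak, with 5231 and 2557 CPM in proestrus and 11483 and 10140 CPM in estrus. Inhbb, the beta-B subunit of activin and inhibin, was one, with 970 and 1020 CPM against 15.7 to 374 CPM (2.39 ± 0.65, adjusted p = 0.0463; 0.191 without proestrus library 1, 0.163 without proestrus library 2 0.0879 to 0.114 without any 1 estrus or metestrus library and 0.0596 by limma-voom). Ramp3, a receptor partner for adrenomedullin, had 323 and 338 CPM, with 237 and 235 CPM in metestrus but 34.4 and 26.2 CPM in estrus (2.39 ± 0.28, adjusted p = 0.0039). Pgr, the progesterone receptor, showed the same 2 high stages, with 385 and 337 CPM in proestrus, 480.5 and 478 CPM in metestrus and 69.0 and 60.7 CPM in estrus, so it was no peak; the contrast called it higher (0.94 ± 0.11, adjusted p = 0.00375; 0.0501 without proestrus library 1). The count of members called higher was 3 without proestrus library 1, 4 without proestrus library 2, 7 without metestrus library 2 and 17 without either diestrus library.

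The gene in the title of the series, Fam3d, annotated here as Oit1, was no proestrus peak. It had 88.1 and 74.3 CPM in proestrus and 95.5 and 95.9 CPM in estrus, with 7.59 and 7.91 CPM in metestrus and 23.8 and 6.71 CPM in diestrus. The contrast called it higher (1.85 ± 0.36, adjusted p = 0.0177), while proestrus and estrus did not differ past the threshold (adjusted p = 0.763). The call ended without proestrus library 1 (0.133), proestrus library 2 (0.0696) or any 1 of the estrus and metestrus libraries (0.052 to 0.057). Its relatives Fam3b and Fam3c were peaks: Fam3b with 42.3 and 21.2 CPM against 0.0900 to 15.1 CPM (5.13 ± 0.33, adjusted p = 0.00097), and Fam3c with 141 and 124 CPM against 43.8 to 85.4 CPM (1.08 ± 0.10, adjusted p = 0.00213). Fam3a, at 58.1 and 46.2 CPM against 30.2 to 54.5 CPM, did not pass.

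For lists of secreted signals and their receptors, the shares of all tested genes were 11.2% peaks, 11.8% troughs, 11.1% higher and 7.57% lower. Growth factors and receptors had 3.77%, 13.2%, 11.3% and 13.2%, so their troughs and higher calls lay near those shares. Prostaglandin, oxytocin and endothelin genes had 12%, 16%, 8% and 24%, with peaks near the share. Chemokines and complement genes had 8.11%, 13.5%, 29.7% and 8.11%, with troughs and lower calls near it. Of 53 tested growth factors and receptors 2 were peaks and 7 troughs, with 6 called higher and 7 lower (2 and 0 without proestrus library 1, 4 and 1 without proestrus library 2); their sum was 4382 and 4818 CPM in proestrus and 5747 to 7521 CPM elsewhere. Of 25 genes of prostaglandin, oxytocin and endothelin signalling 3 were peaks and 4 troughs, with 2 called higher and 6 lower. Of 37 chemokines and complement genes 3 were peaks and 5 troughs, with 11 called higher and 3 lower (1 and 0 without proestrus library 1). In the prostaglandin and oxytocin list no member was called higher by edgeR once any 1 proestrus, estrus or metestrus library was left out.

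Nppc, the C-type natriuretic peptide, had 26.5 and 21.5 CPM in proestrus and 0.0516 to 4.37 CPM elsewhere (4.85 ± 0.37, adjusted p = 0.00123), while its receptor Npr2, a peak by 1.04-fold, had 141 and 116 CPM against 90.1 to 112 CPM (0.31 ± 0.11, adjusted p = 0.0932). Nrtn, the ligand neurturin of the GDNF family, had 35.5 and 25.8 CPM against 4.27 to 12 CPM (2.10 ± 0.17, adjusted p = 0.00146). Gfra1, a co-receptor of that family, had 66.0 and 31.5 CPM against 1.26 to 13.0 CPM (3.28 ± 0.41, adjusted p = 0.00433; 0.0506 without proestrus library 1). Of 20 tested genes of the neurotrophin, GDNF and natriuretic peptide families, 6 were peaks and 1 a trough, with 5 called higher and 2 lower (3 and 0 without proestrus library 1).

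Ret, the kinase that neurturin and its co-receptors use, rested on 1 library, with 145 CPM in proestrus library 1, 16.3 CPM in library 2 and 8.83 to 14.8 CPM elsewhere; its contrast had an adjusted p of 0.0239, of 0.331 without proestrus library 1, of 0.0594 to 0.0749 without any 1 estrus or metestrus library, and of 0.119 by limma-voom. Ngfr, the low-affinity neurotrophin receptor, had 591 and 661 CPM in proestrus, 429 and 465 CPM in metestrus and 7.05 and 2.99 CPM in estrus (3.24 ± 0.28, adjusted p = 0.00164). Oxtr, the oxytocin receptor, had 371 and 232 CPM against 16.4 to 87.9 CPM (2.25 ± 0.51, adjusted p = 0.0287; 0.199 without proestrus library 1, 0.077 without proestrus library 2 and 0.0522 to 0.0834 without any 1 estrus or metestrus library). Ccl11, eotaxin, which draws eosinophils, had 187 and 120 CPM against 7.01 to 57.4 CPM (2.86 ± 0.46, adjusted p = 0.00932; 0.0893 without proestrus library 1).

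Ion and water transport split both ways, with 5 peaks (19.2%) and 9 troughs (34.6%) among 26 tested. The contrast called 7 in each direction (26.9%). Of all tested genes 11.2% were peaks, 11.8% troughs, 11.1% called higher and 7.57% lower. Without proestrus library 1 the contrast called 1 higher and 2 lower, without proestrus library 2 3 and 2, without an estrus or metestrus library 3 to 6 and 2, and without diestrus library 1 12 and 9. Cftr, the chloride channel of fluid secretion, was a peak with 127 and 107.5 CPM against 4.23 to 65.6 CPM (2.36 ± 0.31, adjusted p = 0.00491; 0.0545 without proestrus library 1). Ano1, a calcium-activated chloride channel, was a trough with 21.4 and 31.1 CPM against 49.6 to 158 CPM (-1.76 ± 0.19, adjusted p = 0.00286). The epithelial sodium channel subunit Scnn1a had 2.56 and 2.13 CPM against 4.81 to 31.8 CPM (-1.92 ± 0.71, adjusted p = 0.106).

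For the matrix lists, the shares of all tested genes were 11.2% peaks, 11.8% troughs, 11.1% higher and 7.57% lower. Hyaluronan and proteoglycan genes had 9.38%, 18.8%, 18.8% and 9.38%, with peaks and lower calls near those shares. Collagens and elastic fibre genes had 23.8%, 4.76%, 28.6% and 7.14%, with lower calls near the share. Of 32 tested genes of hyaluronan and proteoglycans, 3 were peaks and 6 troughs, with 6 called higher and 3 lower (3 and 2 without proestrus library 1). Of 42 tested collagens and elastic fibre genes, 10 were peaks and 2 troughs, with 12 called higher and 3 lower. Eln, elastin, had 389 and 368 CPM in proestrus, 41.9 and 36.9 CPM in estrus and 138 to 268 CPM in the other stages (1.62 ± 0.22, adjusted p = 0.00608; 0.0606 without proestrus library 1). Col6a1, a chain of the microfibrillar collagen VI, had 4594 and 4752 CPM against 943 to 3849 CPM (1.10 ± 0.17, adjusted p = 0.00765; 0.0699 and 0.0537 without proestrus library 1 or 2). Plod2, a lysyl hydroxylase of collagen, had 232 and 262 CPM against 61.4 to 160 CPM (1.40 ± 0.09, adjusted p = 0.000994). Without TMM factors the collagen list held 6 peaks. Its count of higher members was 3 without proestrus library 1 and 5 without proestrus library 2.

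Of 28 tested matrix proteases and inhibitors, 9 were troughs (32.1%) and 3 peaks (10.7%), with 11 called lower (39.3%) and 4 higher (14.3%). The shares of all tested genes were 11.8%, 11.2%, 7.57% and 11.1%, so the peaks lay near theirs. Mmp2, a gelatinase, had 206 and 224 CPM in proestrus and 364 to 741 CPM elsewhere (-1.20 ± 0.11, adjusted p = 0.0019). Mmp3, stromelysin 1, had 0.769 and 2.63 CPM against 8.12 to 60.7 CPM (-3.93 ± 0.46, adjusted p = 0.00381). Against these, Plau, the urokinase that activates plasminogen, was a peak with 206 and 112 CPM against 14 to 73.0 CPM (2.29 ± 0.29, adjusted p = 0.00463; 0.0506 without proestrus library 1). Adamts4, an aggrecanase, was a peak with 172 and 143 CPM against 30.1 to 69.4 CPM (1.72 ± 0.26, adjusted p = 0.00806; 0.0822 without proestrus library 1). The count of lower members was 2 without proestrus library 1, 6 without proestrus library 2 and 7 without either metestrus library, and that of higher members 0 without proestrus library 1 and 2 without estrus library 2 or either metestrus library.

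The list with the largest share of troughs was that of dendritic cells and antigen presentation. Dendritic cells take up antigen and show its peptides to T cells on MHC class II molecules, whose genes the factor Ciita switches on and whose assembly needs Cd74 and H2-DM. Of 14 tested members 12 were troughs, 11 were called lower and none higher, with a median log2 difference of -1.23. The sum over the list was 482 and 513 CPM in proestrus and 946 to 1750 CPM elsewhere.

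Among class II genes, Cd74, the invariant chain, had 216 and 253 CPM in proestrus and 432 to 861 CPM (median 554) elsewhere (-1.31 ± 0.23, adjusted p = 0.0121). H2-Ab1 had 85.6 and 92.9 CPM against 169 to 363 CPM (-1.34 ± 0.25, adjusted p = 0.0162; 0.144 and 0.0885 without proestrus library 1 or 2, and 0.05 without metestrus library 1). Ciita had 7.18 and 6.20 CPM against 11 to 20.4 CPM (-1.11 ± 0.19, adjusted p = 0.012). H2-Eb1 was the exception: it varied within stages, with 38.7 and 3.08 CPM in proestrus, 176 and 6.87 CPM in estrus, 4.51 and 89.8 CPM in metestrus and 128 and 125 CPM in diestrus.

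Markers of the cells themselves were lower too. Itgax, the integrin CD11c, had 4.82 and 3.37 CPM against 7.10 to 15.8 CPM (-1.46 ± 0.21, adjusted p = 0.00701). Flt3, the receptor that sustains dendritic cells, had 1.64 and 1.54 CPM against 3.39 to 5.35 CPM (-1.35 ± 0.25, adjusted p = 0.0154). Zbtb46, a factor of conventional dendritic cells, was called lower (-0.83 ± 0.14, adjusted p = 0.011; 0.113 without proestrus library 1) but overlapped: 7.79 and 9.33 CPM against a lowest other value of 9.20 CPM in estrus.

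**Figure D4:**
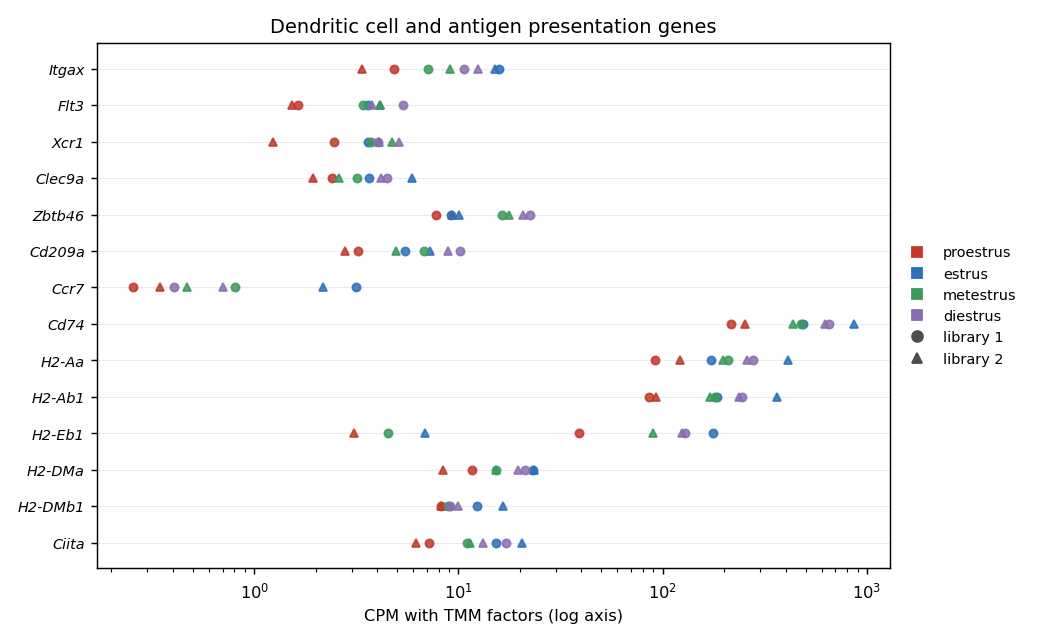
Each row is 1 of the 14 tested genes of dendritic cells and antigen presentation, the x axis is CPM with TMM factors on a log axis, and each point is 1 library coloured by stage. Both proestrus libraries (red) are the lowest for 12 genes, while H2-Eb1 scatters within stages.

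By pairs, 10 members were lower in proestrus than in estrus, 4 lower than in metestrus (6.68% of all genes were) and 10 lower than in diestrus (10.4%). Fewer members passed the contrast when any 1 proestrus, estrus or metestrus library was left out, and by far the fewest without a proestrus library. The calls of Cd74, Ciita and Flt3 ended without either proestrus library, which leaves 1 library in that stage. Without proestrus library 1 or 2 the log2 difference was -1.19 or -1.44 for Cd74, -1.21 or -1.02 for Ciita and -1.38 or -1.315 for Flt3. Macrophage markers were mixed: of 20 tested, 3 were troughs (15%), 5 were called lower (25%) and 2 higher (10%). Of all tested genes 11.8% were troughs, 7.57% called lower and 11.1% called higher. By pairs, 10 macrophage markers were lower in proestrus than in estrus, 1 than in metestrus and 2 than in diestrus. In turn 0, 4 and 5 were higher than in these stages. Fewer macrophage markers were called lower without either proestrus library. Their sum was 1594 and 1050 CPM in proestrus and 1022 to 3177 CPM elsewhere. Lyz2, lysozyme of myeloid cells, had 154 and 156 CPM in proestrus and 308 to 712 CPM elsewhere (-1.47 ± 0.26, adjusted p = 0.0122; 0.116 and 0.0821 without proestrus library 1 or 2). Cd14, by contrast, was called higher and was no peak, at 466 and 239 CPM in proestrus and 774 and 580 CPM in estrus; its call (adjusted p = 0.0248) ended without proestrus library 1 (0.233) or any 1 estrus or metestrus library (0.057 to 0.0755).

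Of 15 tested neutrophil, eosinophil and mast cell markers 4 were troughs (26.7%), all of mast cells, and 1 a peak (6.67%). Of these markers 1 was called lower and 1 higher. Of all tested genes 11.8% were troughs and 11.2% peaks, and of the T and NK cell markers 18.8% were troughs. The median log2 difference of the 15 markers was -0.39, with 7 positive and 8 negative, so the peak below did not extend to the list. The peak, Ly6g of neutrophils, had 6.51 and 5.11 CPM in proestrus and 0.135 to 1.5 CPM elsewhere (3.37 ± 0.33, adjusted p = 0.00228). The called trough, Cpa3, carboxypeptidase A3 of mast cell granules, had 0.923 and 0.744 CPM against 2.70 to 11.7 CPM (-2.44 ± 0.58, adjusted p = 0.0316; 0.179 and 0.163 without proestrus library 1 or 2, 0.0517 to 0.0736 without any 1 estrus or metestrus library, and 0.0879 by limma-voom). Mcpt4, Tpsb2 and Cma1, proteases of the same granules, were troughs that did not pass, with adjusted p of 0.0525, 0.087 and 0.0538. Of the 16 tested T and NK cell markers 3 were troughs, among them Cd4 with 2.26 and 1.29 CPM against 3.39 to 9.24 CPM (-1.43 ± 0.31, adjusted p = 0.0251; 0.072 and 0.133 without proestrus library 1 or 2, and 0.0531 to 0.0654 without estrus library 2 or either metestrus library).

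None of the tested Wnt signalling genes was a peak. Wnt proteins act through frizzled receptors and beta-catenin, with secreted antagonists and R-spondins setting the strength, and in the uterus they are known for gland formation and for the response to progesterone. Of 31 tested members 10 were troughs, and edgeR called 12 lower and none higher (1 higher at an unadjusted p under 0.05, 1 by DESeq2 and 0 by limma-voom), with a median log2 difference of -0.87. Among ligands, Wnt2 had 0.461 and 0.844 CPM in proestrus and 2.27 to 7.54 CPM elsewhere (-2.58 ± 0.35, adjusted p = 0.00553; 0.0554 without proestrus library 1). Wnt11 had 0 and 1 count in the proestrus libraries and 0.85 to 24.8 CPM elsewhere. Of 14 tested antagonists or amplifiers 5 were called lower, among them Dkk3, described above, and Rspo3. The lower calls thus mix genes that weaken and genes that strengthen Wnt signals, and their count gives no direction of signalling.

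Rspo3, an R-spondin that strengthens Wnt signals, had 16.8 and 24.4 CPM in proestrus, 161 and 138 CPM in estrus and 27.8 to 47.7 CPM in the others (-1.49 ± 0.17, adjusted p = 0.00329). Among targets, Lef1 had 1.95 and 2.48 CPM against 4.05 to 42.1 CPM (-2.33 ± 0.56, adjusted p = 0.0327; 0.215 and 0.138 without proestrus library 1 or 2, 0.0626 to 0.0789 without any 1 estrus or metestrus library, and 0.127 by limma-voom). Axin2, the target most often used to read the pathway, was no trough, with 75.6 and 81.3 CPM against 54.2 to 108 CPM (0.10 ± 0.10, adjusted p = 0.487). By pairs, 5 members were lower in proestrus than in estrus, 11 than in metestrus and 14 than in diestrus, while 2 were higher than in estrus, 0 than in metestrus and 1 than in diestrus. The count by the contrast was 2 without proestrus library 1 and 7 without proestrus library 2.

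Of 22 tested hedgehog and progesterone response genes, 6 were troughs and 8 called lower. By pairs, 8 were lower in proestrus than in metestrus and 14 than in diestrus, and 0 lower and 4 higher than in estrus. Ihh, the epithelial ligand, had 0.154 and 0.546 CPM in proestrus and 0.150 and 0.310 CPM in estrus, against 8.46 to 92.4 CPM in metestrus and diestrus, so it was no trough. Ptch1, the receptor and a target, was a trough by a narrow gap, with 29.0 and 32.9 CPM in proestrus, 41.6 and 37.9 CPM in estrus and 98.2 to 279 CPM after it (-1.80 ± 0.39, adjusted p = 0.0247; 0.183 and 0.119 without proestrus library 1 or 2, and 0.0592 to 0.0669 without any 1 estrus or metestrus library). Estrus was the nearest stage for 5 of the 6 troughs. Bmp8a was the 1 peak of the list, with 9.49 and 3.92 CPM against 0.0504 to 1.08 CPM (4.31 ± 0.46, adjusted p = 0.00305). The count of lower members was 0 without proestrus library 1, 3 without proestrus library 2, 5 without any 1 estrus or metestrus library and 14 without diestrus library 1.

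The troughs with the widest gaps came from several families. Ndp, norrin, a ligand of frizzled 4, had 0.513 and 0.596 CPM in proestrus and 4.95 to 53.8 CPM elsewhere (-4.44 ± 1.00, adjusted p = 0.0277; 0.19 and 0.141 without proestrus library 1 or 2, 0.0606 to 0.0672 without any 1 estrus or metestrus library, and 0.198 by limma-voom). Cldn1, a tight junction claudin, had 4.20 and 3.33 CPM against 18.3 to 81.3 CPM (-3.09 ± 0.55, adjusted p = 0.013; 0.106 and 0.0906 without the same proestrus libraries, and 0.053 by limma-voom). Cd83, a surface protein of activated dendritic and other cells, had 2.51 and 1.29 CPM against 9.04 to 46.8 CPM (-3.54 ± 0.76, adjusted p = 0.0234; 0.13 and 0.139, 0.0554 to 0.0609 without estrus library 2 or either metestrus library, and 0.0824 by limma-voom). In each the highest value was diestrus library 2.

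Gpnmb, a glycoprotein of phagocytes and pigment cells, had 1.44 and 2.03 CPM in proestrus, 111 and 157 CPM in estrus and 9.02 to 27.7 CPM in the others (-4.12 ± 0.37, adjusted p = 0.00187). Sult1d1, a sulfotransferase, ran the other way among the stages, with 3.64 and 5.16 CPM in proestrus, 19.4 and 12.9 CPM in estrus, 23.1 and 44.5 CPM in metestrus and 181 and 166 CPM in diestrus (-3.37 ± 0.35, adjusted p = 0.00278). Gpr176, an orphan receptor, had 0.256 and 0.298 CPM, 10.4 and 12.9 CPM in estrus and 1.36 to 2.28 CPM after it (-3.59 ± 0.29, adjusted p = 0.00136). Gpnmb and Gpr176 were highest in estrus and Sult1d1 in diestrus.

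Interferon response genes show that a call by the contrast need not be a proestrus peak. Of 22 tested, 17 were called higher and 1 was a peak. Isg15 had 99.7 and 76.0 CPM in proestrus, 88.0 and 51.5 CPM in estrus and 4.62 to 9.29 CPM in metestrus and diestrus (2.58 ± 0.29, adjusted p = 0.00343). All 22 were higher in proestrus than in metestrus and 19 than in diestrus, while against estrus none was higher and 1 lower. Without estrus library 1 the list held 7 peaks, and without proestrus library 1 the contrast called 5.

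Genes of cell division and growth were rarely members, but here the libraries of a stage differed. Of 39 tested DNA replication genes 1 was a peak and none a trough; edgeR called 0, with 0 at an unadjusted p under 0.05 and 0 by DESeq2 and limma-voom. Of 30 ribosome biogenesis genes 1 was a trough and 2 were called lower, and without proestrus library 1 none was. The 27 mitosis genes held no peak and no trough, and 1 was called higher. Their sum was 656 and 1403 CPM in the proestrus libraries, 291 and 149 CPM in estrus, 1103 and 1242 CPM in metestrus and 196 and 762 CPM in diestrus. With proestrus library 1 left out, 20 of the 27 were peaks, and without diestrus library 2 the contrast called 22 higher. The position of the mitosis genes in proestrus thus rested on single libraries.

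None of 13 mitochondrial transcripts was a member. Their sum was 22477 and 22695 CPM in proestrus and 20090 to 24610 CPM elsewhere, and the groups overlapped.

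**Figure D5:**
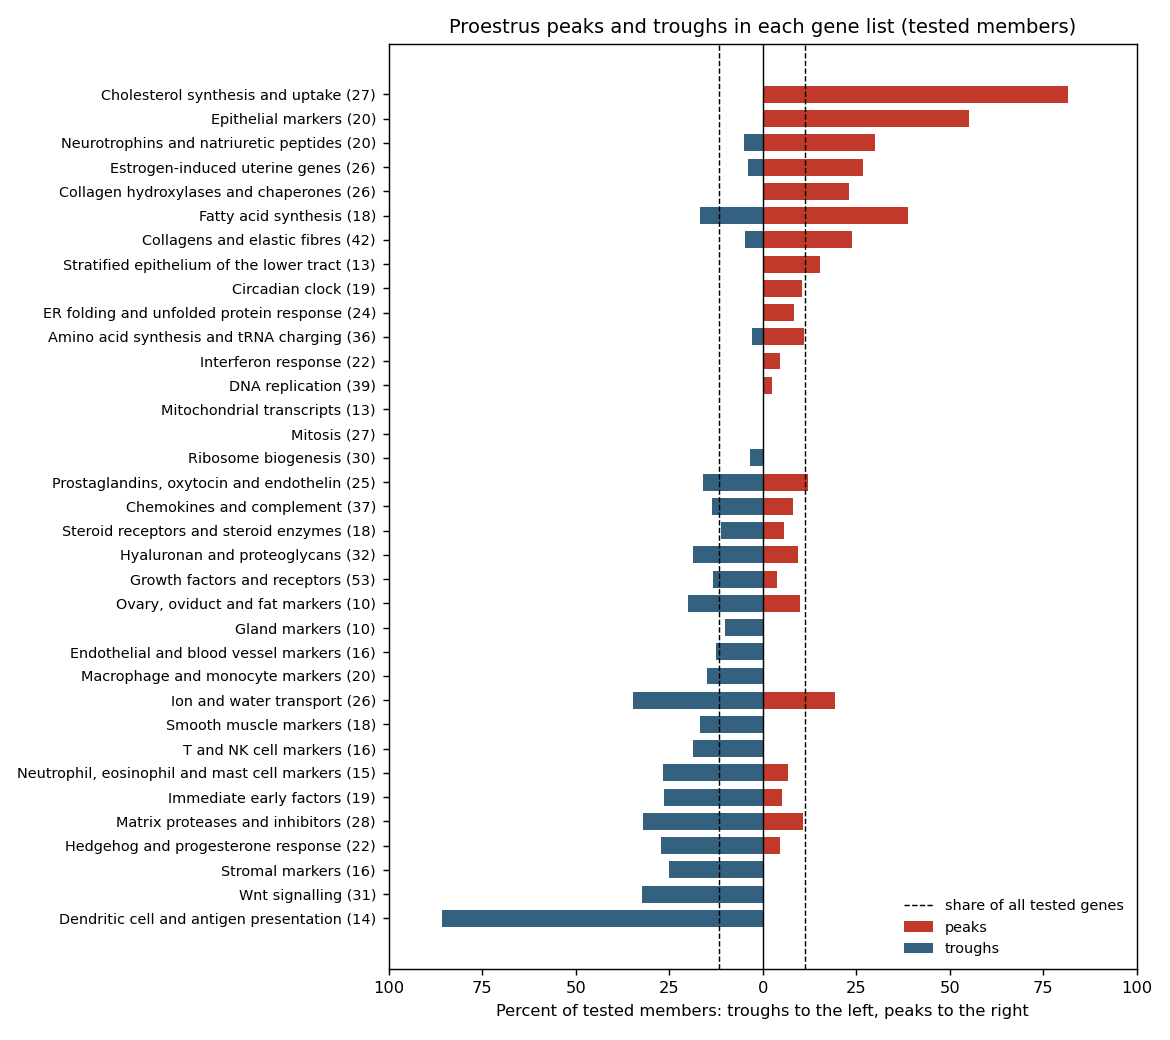
Bars give the percent of tested members of each gene list (number in brackets) that were proestrus peaks (right) or troughs (left), and the dashed lines the share of all tested genes, 11.2% and 11.8%. Cholesterol genes lead on the peak side and antigen presentation genes on the trough side, while the DNA replication and mitosis lists lie at 2.56% and 0% for peaks.

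Peaks and troughs also differed in level, exon length and gene type. The level is not separate from the rule, since the mean CPM over the 8 libraries holds the proestrus values that make a peak or trough. Its median was 39.9 for tested peaks, 12.2 for troughs and 18.2 for all tested genes. The median exon length was 3423 bases for peaks, 4628 for troughs and 3780 for all. Protein-coding genes made up 87.5% of peaks, 85.4% of troughs and 82.9% of all. These are descriptions with no test.

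Among the other stages, the highest mean lay in estrus for 52.1% of tested peaks, in metestrus for 36.3% and in diestrus for 11.7%. For all tested genes the highest of the 3 was estrus in 41.8%, metestrus in 31.7% and diestrus in 26.6%. For troughs the lowest of the 3 was metestrus in 47.0%, estrus in 42.3% and diestrus in 10.6%, against 37.0%, 40.7% and 22.3% of all genes. Diestrus, the stage before proestrus, was the nearest less often than its share among all tested genes. In the test among estrus, metestrus and diestrus, which leaves proestrus out, 559 peaks (27.5%) and 425 troughs (19.8%) passed, against 32.5% of all tested genes; the rule favours genes with little spread among those stages.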

How the data were processed

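The 8 uterus libraries were made from mRNA with a stranded kit, per the labels' protocols. The authors deposited raw counts per gene in 1 table; STAR, featureCounts and Subread, with GRCm38 (mm10), are named in the submitters' processing notes, with versions, and whether counting used strand, not given in the sources used here. Reads of genes that overlap another gene on the opposite strand (Ovol2, Adh1, Bcat1, G6pdx, Pltp, Bex1, Padi2 and others) therefore cannot be assigned with certainty. Of 52308 IDs, 52058 matched GENCODE M21, which gave symbols; the 250 others held at most 0.0107% of a library's counts.

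Counts were tested in edgeR 4.0.16 (R 4.3.3): filterByExpr by stage, TMM factors (0.898 to 1.11), 1 coefficient per stage, 4 residual degrees of freedom, quasi-likelihood F test, adjusted p under 0.05 over 18114 genes, and a prior count of 2 for fold changes. The biological coefficient of variation was 0.250. With 2 libraries a stage, precision is limited. Alternatives used DESeq2 1.42.0 size factors and test, limma-voom (limma 3.58.1), other filters, the 6 other libraries as 1 group, and each library left out. The code was checked on simulated counts.

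Named genes were, among peaks and troughs past the contrast with an assigned name and a mean of 5 CPM in proestrus or in the others, the 14 with the largest fold change and the 14 with the widest gap in each direction, then up to 6 peaks and 6 troughs per list by p, the FAM3 family, Esr1 and Pgr, and the genes nearest the edge of the rule. Genes past the fit with the 6 other libraries as 1 group, keratin and deiminase families, and other list members were named after their values were seen. The members and lists were chosen with earlier results of these data known. Promoters came from RefSeq; protein sequences were not used here. Some genes are not reported here by name or drawn, but stay in the counts.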

Additional observations from a re-analysis of the deposited data

How the results depend on the processing

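The calls of the contrast depended on how the other stages were treated and on the proestrus libraries. Taking the 6 other libraries as 1 group gave 31 genes higher and 15 lower, since differences among those stages then count as spread. A minimum fold of 2 gave 237 and 42. Without TMM factors 1376 genes were higher and 2111 lower, with 1269 peaks. The factors were 0.8975 and 0.9572 in proestrus, 0.9355 and 0.9644 in estrus and 1.016 to 1.111 in metestrus and diestrus. Leaving them out therefore lowers proestrus CPM relative to metestrus and diestrus. Why the factors differ was not tested. Leaving out 1 library at a time gave 360 to 2766 genes higher and 113 to 2159 lower, 2173 to 3255 peaks and 2376 to 3566 troughs, 91 to 221 peaks and 60 to 132 troughs with a 2-fold gap, and 234 to 829 peaks and 103 to 652 troughs that differ among the other 3 stages. The lowest counts of higher and lower calls are those without proestrus library 1, and the lowest counts that differ among the other stages those without an estrus library; fewer libraries also make the order of peaks and troughs easier to meet.

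DESeq2 size factors, no filter or a 1 CPM filter, DESeq2 and limma-voom stayed within 1.5 times of the reported counts of higher and lower genes (1952 to 2323 and 1122 to 1819). The replicate block gave 2127 genes higher and 1367 lower. Deviations of same-numbered libraries correlated at -0.0926 to 0.145, so the numbers were not taken to pair libraries.

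Of 178 named calls, 9 held under every alternative run for named genes: Gng4, Ovol2, Calml4, Adh1, Fbln2 and Omd above, Bex1, Pltp and Arnt2 below. Taking the others as 1 group ended 166, omitting proestrus library 1 ended 117 and library 2 84, omitting an estrus or metestrus library 42 to 55, limma-voom 23, the replicate block 4, DESeq2 2, and none was reversed. For gene lists, the counts without TMM factors and with the others as 1 group were chosen after seeing the data. With 2 libraries a stage, 1 library can decide a call.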
